A study of Drosophila melanogaster with 4 samples.

Results

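Along the arms 2L, 3L, 3R and X of the fly genome, 352 stretches longer than 50 kb were free of clusters of the histone variant H2Av in adult fly heads. A cluster here is a region that the authors called enriched for H2Av in chromatin immunoprecipitation and sequencing (ChIP-seq) against input DNA. The clusters of both ChIP replicates were merged into 5115 union clusters, and a stretch is the sequence between consecutive union clusters. The arm ends were left out. Of 5107 such stretches of any length, 6.89% exceeded 50 kb. The positions of the clusters chose the stretches. Their number, length and bordering clusters are therefore described without a test.

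The flies were wild-type Oregon-R, the modENCODE line of that strain, of mixed adult age, and their heads were collected with sieves. The 4 libraries were 2 ChIP replicates made with the H2Av antibody 9751 and 2 inputs, and each input served 1 of the replicates. The labels number the replicates but name no separate cages or collections for them, so their differences may be technical only. The lists give no read counts: the depth is unknown, and a stretch without a cluster is one where none was called, not one shown to lack H2Av. On the 4 arms, replicate 1 had 4823 clusters that covered 24.1% of the sequence and replicate 2 had 4962 that covered 23.3%. A head holds many cell types, and a difference in the number of cells of a type and a difference in H2Av per cell cannot be told apart. Gene positions were not used here, because the gene table at hand is on another genome release, so the head origin was not checked against marker genes and no sequence is shown.

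H2Av is the H2A variant of Drosophila and unites functions that mammals divide between H2A.Z and H2A.X. It is exchanged into nucleosomes by the Domino ATPase and its partner proteins. It is found near the start of many active genes and in heterochromatin, and its phosphorylated form marks DNA breaks.

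The stretches over 50 kb added up to 40.5 Mb, which was 41.4% of the 4 arms and 57.6% of all sequence outside the union clusters on them. The union clusters covered 28.1% of the arms, and the 4755 shorter stretches made up 30.5%. The median over all 5107 stretches was 2894 bp, so the sequence without a cluster was divided between many short intervals and few long ones. Among the 352, the median length was 93.8 kb, with quartiles at 67.4 kb and 138 kb. There were 162 over 100 kb, which held 27.0 Mb, 37 over 200 kb and 8 over 300 kb. At the threshold, the 3 shortest were all on 3R, with 50.1 kb (3R:7723116-7773209), 50.5 kb (3R:16079344-16129796) and 50.5 kb (3R:8070243-8120713). The 3 longest that were left out had 49.7 kb on 2L and 49.5 kb on 3R in both other cases, so the threshold fell within a continuous range of lengths.

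The number of stretches was close to even over the arms, with 89 on 2L, 87 on 3L, 91 on 3R and 85 on X. Per Mb there were 3.87 on 2L, 3.54 on 3L, 3.26 on 3R and 3.79 on X. The share of the arm inside them was 45.7% on 2L, 42.4% on 3L, 37.3% on 3R and 40.9% on X. Median lengths lay between 89.5 kb on X and 95.9 kb on 2L and 3L, as the plot of lengths by arm shows.

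**Figure D1:**
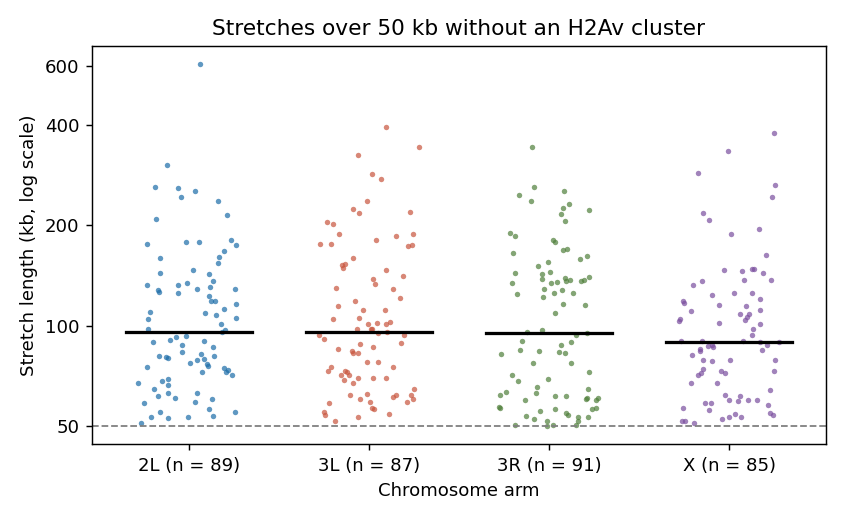
Length of each of the 352 stretches over 50 kb without an H2Av cluster (points, log axis in kb), by chromosome arm; black bars are medians and the dashed line is the 50 kb threshold. The 4 arms have medians of 89.5 to 95.9 kb, and the 607 kb stretch on 2L stands above the rest.

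Each replicate list was also read alone, which gives a spread for the differences between arms. Replicate 1 had 367 stretches over 50 kb of its own and replicate 2 had 392. They took up 50.7% of 2L in replicate 1 and 51.8% in replicate 2, a mean of 51.3 ± 0.783% (SD, n = 2). On 3L the shares were 46.5% and 47.1%, or 46.8 ± 0.410%. On 3R they were 44.0% and 43.4%, or 43.7 ± 0.397%. The gaps between 2L, 3L and 3R were larger than the SD of the replicates on these arms. An SD from 2 lists, which may differ only technically, is a rough measure of spread. On X the lists differed, with 43.4% in replicate 1 and 50.0% in replicate 2 (46.7 ± 4.65%), so X could not be placed among the other arms.

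The longest stretch spanned 607 kb of 2L (2L:14364764-14972227). In replicate 1 alone it ran for 608 kb and in replicate 2 alone for 638 kb. On its low side both lists had a cluster of similar size, 5418 bp with a score of 1.56 in replicate 1 and 6322 bp with a score of 1.53 in replicate 2, and their edges lay 980 bp apart. On its high side replicate 1 ended it with a narrow cluster of 1447 bp and a score of 0.522, whereas the next cluster of replicate 2 was 30.3 kb further on, 9091 bp wide, with a score of 1.77. The other long stretches of 2L were 303 kb (2L:3874187-4177610) and 260 kb (2L:16926762-17187153). The first was 313 kb in replicate 1 and 303 kb in replicate 2. The second was 260 kb in replicate 1 and 406 kb in replicate 2, because both of its ends were clusters that replicate 1 alone placed there.

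On 3L the longest stretch was 393 kb (3L:22287834-22680525), centred at 91.6% of the arm's length from its telomere end, and it measured 393 kb in replicate 1 and 408 kb in replicate 2. The next was 344 kb (3L:18108891-18452412), at 345 kb in both lists, and its borders were sharp: the edges of the lists lay 1107 bp and 1321 bp apart. On its low side stood clusters of 6439 bp in replicate 1 and 10267 bp in replicate 2. The third was 324 kb (3L:13044942-13369186), at 331 kb in replicate 1 and 324 kb in replicate 2. Of these 3, the lists differed by over 10 kb in the first alone.

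On 3R the longest stretch was 343 kb (3R:23794590-24138065), at 370 kb in replicate 1 and 343 kb in replicate 2. Next came 259 kb (3R:22016825-22276302) and 253 kb (3R:22287138-22539677). In the 259 kb stretch the lists gave 261 kb and 260 kb. In the 253 kb stretch they gave 253 kb each, with edges 27 bp apart on the low side and 387 bp apart on the high side, which makes it the longest of the 51 stretches whose borders both agreed within 1 kb.

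On X the longest stretches were 379 kb (X:11950421-12329226), 333 kb (X:7237781-7570992) and 287 kb (X:2685146-2972439). The 379 kb stretch was 399 kb in replicate 1 and 380 kb in replicate 2. The 333 kb stretch was 333 kb and 336 kb, and its low-side cluster was 12909 bp wide in replicate 1 and 2262 bp in replicate 2. The 287 kb stretch was 287 kb in replicate 1 and 422 kb in replicate 2: replicate 1 ended it with clusters of 1596 bp and 1444 bp, and replicate 2 had its nearest clusters 49.6 kb and 85.3 kb further out.

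Position along the arm differed from arm to arm. On 2L the stretches took up 37.8% of the part nearest the telomere, 50.9% of the middle part and 48.3% of the part nearest the centromere, with the arm cut into 3 equal parts, and their median length was 81.0 kb, 96.9 kb and 128 kb in that order. On 3L the shares were 42.7%, 47.6% and 36.9%, on 3R 38.1%, 38.9% and 34.8%, and on X 44.2%, 43.2% and 35.3%. In 96 full windows of 1 Mb, the median share inside stretches was 39.3%. The highest was 88.3% in 2L:14000001-15000000, followed by 79.3% in 3L:10000001-11000000, 78.6% in 2L:17000001-18000000 and 76.6% in 2L:15000001-16000000. The window 3L:23000001-24000000 held none, and the shares were 5.64% in 2L:22000001-23000000 and 7.51% in 2L:1-1000000. Both ends of 2L were therefore poor in long stretches: the first began 915 kb from the start of the arm and the last ended 954 kb before its end. On X the first began 51.4 kb from the start and the last ended 122 kb before the end.

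**Figure D2:**
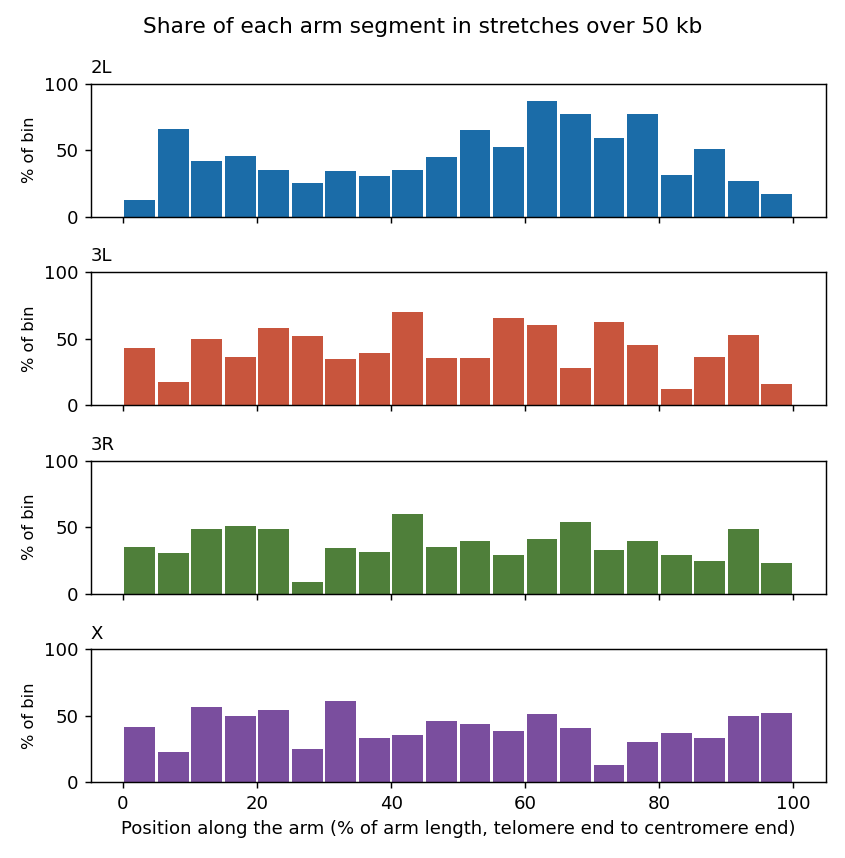
Share (%) of each of 20 equal segments of an arm that lies in stretches over 50 kb, drawn from the telomere end (0) to the centromere end (100) as % of arm length; bars start at 0. On 2L the segment from 60 to 65% of the arm reaches 86.6%, and on 3R the segment from 25 to 30% has 8.98%.

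Most stretches stood alone. Of the 352, 277 had no further stretch over 50 kb beside them, 30 runs held 2 with a single union cluster between them, and 5 runs held 3. The longest run spanned 514 kb (2L:17604695-18118984), of which 98.5% was stretch. The others with 3 spanned 395 kb (3L:14121281-14516738), 261 kb (2L:21796369-22057528), 236 kb (2L:9091738-9327705) and 235 kb (X:21541484-21776492). In all, 75 stretches (21.3%) belonged to runs.

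The runs left 40 union clusters with a long stretch on both sides. Their median width was 1762 bp, against 2234 bp for the 624 with a long stretch on 1 side and 3428 bp for the 4451 with none. Both replicates called 16 of the 40 (40.0%), against 62.0% of all 5115 union clusters. The share was 47.9% with a long stretch on 1 side and 64.2% with none. By the rule, a cluster of either list alone is enough to divide a long stretch. Of the 40, 12 came from replicate 1 alone and 12 from replicate 2 alone. A few of the 40 were wide and called in both lists. The widest lay at 2L:5715665-5726063 (10.4 kb), between stretches of 90.8 kb and 73.8 kb, with a highest score of 1.54 in replicate 1 and 1.38 in replicate 2. The next, 2L:1609585-1616258 (6.67 kb), between stretches of 105 kb and 87.8 kb, scored 1.35 in replicate 1 and 1.64 in replicate 2. X:3462788-3468511 (5.72 kb) scored 0.880 in replicate 1 and 1.78 in replicate 2, and 2L:9249429-9255187 (5.76 kb) scored 1.18 and 1.13. These 4 isolated clusters were among the widest 5 and, of the 16 called in both lists, among the 5 with the highest mean score. Some clusters of a single list scored as high, such as X:14363446-14364860 with 1.42 in replicate 1, which was chosen after its value was seen. The fifth by width was X:14845607-14850877 (5.27 kb) and the fifth by score was 2L:9163062-9168142 (5.08 kb). The named clusters that both lists called were also in the combined list that the authors made for the set of replicates.

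The replicates set the 704 borders in near-equal numbers, 378 by replicate 1 and 326 by replicate 2. The nearest edges of the lists lay a median of 2615 bp apart. They were within 1 kb at 247 borders (35.1%) and within 10 kb at 483 (68.6%), and over 50 kb apart at 69. In length, 262 stretches were less than 1.1 times as long in replicate 1 alone as in the union, and 250 in replicate 2 alone. For 181 (51.4%) this held in both lists. For 78 stretches the length in at least 1 list was over 1.5 times that in the union, and for 3 of them it was so in both.

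A cluster called in 1 list and untouched in the other ended a stretch at 373 of the 704 borders (53.0%). There were 93 stretches with matched clusters on both sides, 145 with an unmatched cluster on 1 side and 114 with unmatched clusters on both. The stretches with unmatched clusters at both ends had a median length of 89.6 kb, against 92.6 kb for those with none. The clusters that interrupted the long stretches of the other list were narrow. They are unmatched by definition, and unmatched clusters were narrow elsewhere too. Among clusters not nearest to a border, 51.4% of those up to 2000 bp were unmatched in replicate 1 and 45.4% in replicate 2. Over 5000 bp, the shares were 0.298% and 0.387%. Replicate 2 placed 297 clusters wholly inside the long stretches of replicate 1, where the median cluster had 1582 bp and a score of 0.833, against 3281 bp and 1.04 for its clusters elsewhere. Replicate 1 placed 376 inside those of replicate 2, with medians of 1583 bp and 0.804, against 3389 bp and 0.969 elsewhere. In the union, 28 long stretches of replicate 1 and 54 of replicate 2 held no stretch over 50 kb.

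Clusters at the borders were narrower than others in both lists. For each list, the cluster nearest to each border was compared with all other clusters of that list on the 4 arms. In replicate 1 the 640 border clusters had a median width of 2429 bp, with quartiles at 1651 bp and 4697 bp, against 3290 bp for 4183 others, with quartiles at 1947 bp and 6109 bp. In replicate 2 the medians were 2346 bp for 637 border clusters and 3196 bp for 4325 others. The ratio of border to other was 0.738 in replicate 1 and 0.734 in replicate 2, a mean of 0.736 ± 0.00290 (SD, n = 2). Both lists were measured at the same union stretches, so this SD is not a spread of independently set borders. The same holds for the SDs of the score and unmatched differences below. With each list setting its own stretches, the ratio was 0.733 in replicate 1 and 0.713 in replicate 2. Clusters over 10 kb made up 6.56% of border clusters against 11.6% of others in replicate 1, and 5.49% against 9.76% in replicate 2. Those of at most 2000 bp made up 38.8% against 26.3% in replicate 1 and 40.3% against 26.2% in replicate 2. The distributions overlapped widely, and the widest border cluster had 35.6 kb in replicate 1 and 27.1 kb in replicate 2. All 4 arms had the direction in both lists, with ratios between 0.630 on 3R in replicate 2 and 0.844 on 3R in replicate 1. The rule takes part in the width difference, since an unmatched cluster of either list is enough to end a stretch and unmatched clusters were narrow. The agreement of arms and lists is therefore no independent support. In stretches set by the clusters that touch the other list the ratio was 0.912, and it was 0.915 in stretches set by the combined list and 0.977 where only the higher-scoring 50% of each list was kept.

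The authors' score of border clusters was slightly lower. Its median was 0.906 against 0.955 for other clusters in replicate 1 and 0.958 against 1.03 in replicate 2, a difference of -0.0586 ± 0.0130 (SD, n = 2). Scores rank clusters within a list, and their scale is not named in the sources used here. Within classes of equal width the difference did not keep this direction. Among clusters of at most 2000 bp, border clusters had a median of 0.675 against 0.627 for others in replicate 1, and of 0.780 against 0.733 in replicate 2. Among those over 5000 bp the medians were 1.32 against 1.33 in replicate 1 and 1.46 against 1.48 in replicate 2. Between 2000 and 5000 bp they were 0.940 against 0.959 in replicate 1 and 1.04 against 1.02 in replicate 2. For stretches over 100 kb the overall difference shrank to -0.0149, and for stretches set by the combined list to -0.0197.

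Border clusters were also more often found in a single list. In replicate 1, 213 of 640 border clusters (33.3%) shared no base with replicate 2, against 19.2% of other clusters and 21.0% of all clusters on the arms. In replicate 2 it was 204 of 637 (32.0%), against 16.7% of other clusters and 18.7% of all. The difference was 14.7 ± 0.848 percentage points (SD, n = 2). It was largest among narrow clusters: up to 2000 bp, 68.5% of border clusters against 51.4% of others were unmatched in replicate 1, and 65.8% against 45.4% in replicate 2. Among wider clusters it was small. From 2000 to 5000 bp the shares were 16.1% against 13.3% in replicate 1 and 13.9% against 10.7% in replicate 2. Over 5000 bp they were 2.08% against 0.298% in replicate 1 and 0.741% against 0.387% in replicate 2. The rule takes part in the difference, since a lone cluster in either list is enough to end a stretch. For stretches set by the combined list the difference was 2.74 points, and for only those clusters whose own edge is the border it was 34.3 points.

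**Figure D3:**
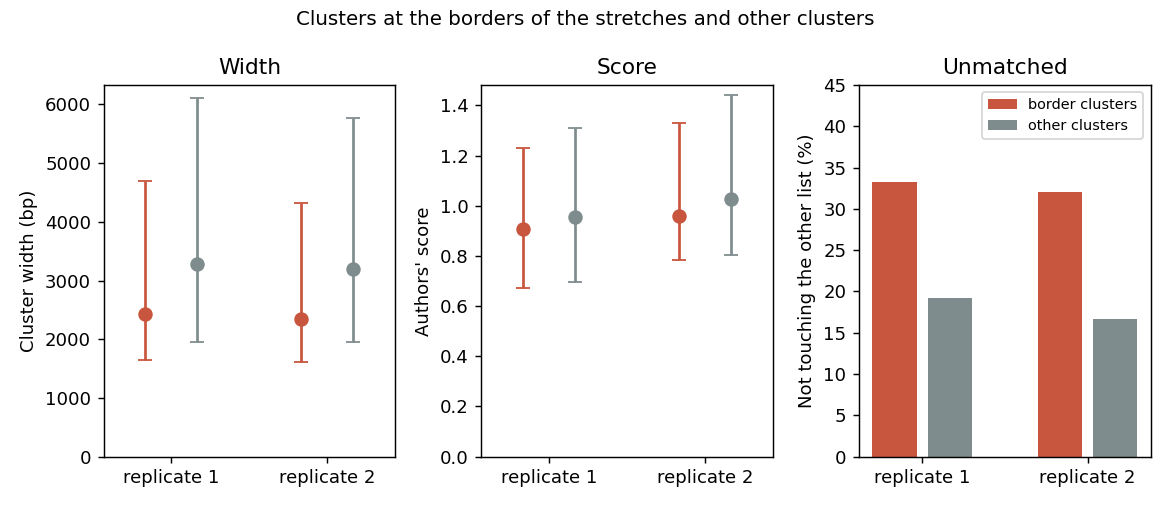
Clusters nearest to the borders of the stretches (red) and all other clusters on the 4 arms (grey), in each replicate list: median width in bp and median score with bars from the lower to the upper quartile, and the % of clusters that touch no cluster of the other list. In both replicates border clusters are narrower (medians 2429 and 2346 bp, against 3290 and 3196 bp) and more often unmatched (33.3 and 32.0%, against 19.2 and 16.7%).

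The narrowing set in below the 50 kb threshold. Union clusters were grouped by the longer of the stretches beside them. With at most 5 kb on either side the median union width was 3549 bp, then 3632 bp at 5 to 10 kb, 3305 bp at 10 to 25 kb, 2779 bp at 25 to 50 kb, 2102 bp at 50 to 100 kb and 2312 bp over 100 kb. The share called in both replicates was 65.3%, 67.6%, 64.3%, 53.6%, 46.4% and 48.6% in the same order. A union cluster can be wider than the clusters merged in it. In replicate 1 alone the median width fell less, from 3302 bp up to 5 kb to 2936 bp at 25 to 50 kb. In replicate 2 alone it fell from 3189 bp to 2842 bp. At 50 to 100 kb these medians were 2270 bp and 2286 bp, and over 100 kb 2480 bp and 2696 bp. Clusters beside stretches over 100 kb were thus no narrower than those beside stretches of 50 to 100 kb. Their median score was 0.946 in replicate 1 and 1.03 in replicate 2, against 0.894 and 0.947 in the class of 50 to 100 kb.

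Beyond the border clusters H2Av coverage was lower than beside other clusters, most of all over the first 10 kb, and in every distance class up to 100 kb in both lists. Coverage was taken outward from the far edge of the 624 border clusters with a stretch on 1 side, and from both edges of union clusters without a long stretch beside them. It is given as a share of the sequence outside the stretches. In the first 5 kb it was 22.6% in replicate 1 and 22.9% in replicate 2, against 30.3% and 29.5% beside other clusters. From 5 to 10 kb it was 34.5% in both lists, against 41.3% in replicate 1 and 40.1% in replicate 2. From 10 to 20 kb it was 37.7% in replicate 1 and 36.3% in replicate 2, against 41.6% and 40.4%, and from 20 to 30 kb 38.0% and 36.3%, against 40.9% and 39.3%. From 30 to 50 kb it was 40.1% in replicate 1 and 38.1% in replicate 2, against 41.0% and 39.5%. From 50 to 75 kb it was 39.5% and 37.6%, against 41.7% and 40.4%. From 75 to 100 kb it was 40.8% and 39.9%, against 42.2% and 40.9%. Over all sequence outside the stretches, coverage was 41.1% in replicate 1 and 39.7% in replicate 2. Up to 30 kb and from 50 to 75 kb the gap to other clusters was larger than the difference between the replicates, but not from 30 to 50 kb; from 75 to 100 kb it was of a similar size.

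**Figure D4:**
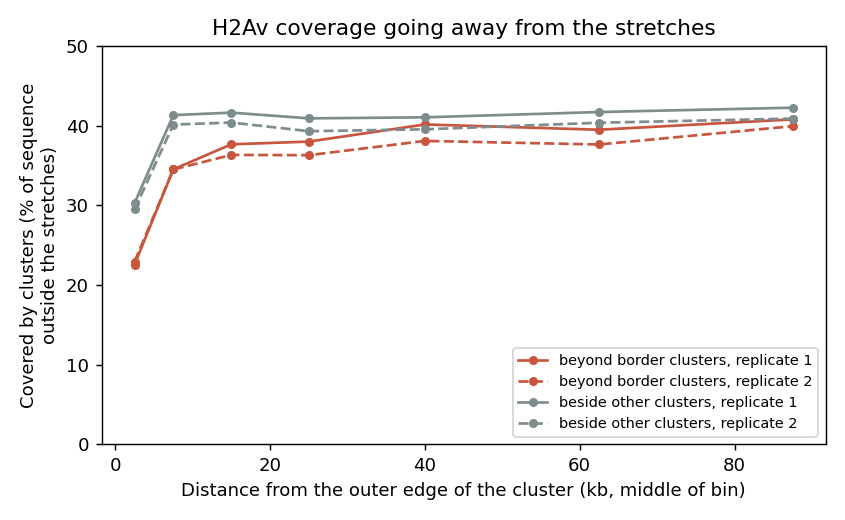
Coverage by H2Av clusters (% of sequence outside the stretches) against distance in kb from the outer edge of border clusters (red) and of clusters with no long stretch beside them (grey), for replicate 1 (solid) and replicate 2 (dashed). The red lines start at 22.6 and 22.9% and the grey lines at 30.3 and 29.5%, and all end between 39.9 and 42.2%.

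The combined list, made by the authors from the same libraries, left the stretches nearly free of clusters. It covered 277 kb of them, or 0.683% of their length, against 6.80% of the stretches of at most 50 kb. Among the shorter stretches, the share fell from 18.5% up to 5 kb to 2.53% at 25 to 50 kb. All these shares include border clusters extended inward, and shorter stretches have more borders for their length. Of the length covered in the long stretches, 213 kb (77.0%) lay in separate clusters that touched no replicate cluster, and 63.7 kb extended clusters at the borders inward. There were 170 such separate clusters in the stretches, or 4.20 per Mb, against 703 or 23.6 per Mb in the shorter ones. The ratio was 0.178. It was 0.309 for stretches of replicate 2 alone, 0.233 for those of replicate 1 alone, 0.359 for stretches set by matched clusters and 0.410 in the upper 50% by score.

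At least 1 of these clusters was found in 114 stretches (32.4%), against 13.0% of all 5107, most of which are short: longer stretches have more room. By count, 238 stretches held none, 79 held 1, 22 held 2, 7 held 3, 5 held 4 and 1 held 6. A further count takes in the borders: 103 stretches (29.3%) did not touch the combined list at all, close to the 26.0% of all 5107. In 323 of the 352 stretches the longest piece free of the combined list still exceeded 50 kb, and 29 were broken into shorter pieces. Read alone, the combined list had 339 stretches over 50 kb.

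The clusters inside were narrow. Their median width was 1152 bp, against 1223 bp for the combined-only clusters of shorter stretches and 3550 bp for the 4610 combined-list clusters that touched a replicate cluster. Of the 170, 120 (70.6%) were below 1301 bp, the smallest width in either replicate list, whereas the combined list went down to 1001 bp. This was not particular to the long stretches, since the median of 1223 bp in shorter ones also lay below 1301 bp. The median score of the 170 was 0.543, against 0.485 in shorter stretches and 0.740 for the clusters that touched a replicate cluster. By arm, the median inside the long stretches was 0.609 on X, which held 69 of the 170, and 0.478 to 0.494 on the other arms. The median of shorter stretches was not split by arm. With only clusters of at least 1301 bp the ratio of densities fell to 0.122.

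The density of these clusters fell with the length of the stretch from 5 kb upward and with the distance from its borders. It was 30.0 per Mb in stretches up to 5 kb, many of which are too short to hold a cluster, 42.2 at 5 to 10 kb, 20.1 at 10 to 25 kb, 15.2 at 25 to 50 kb, 7.43 at 50 to 100 kb, 3.03 at 100 to 200 kb and 1.82 over 200 kb. Inside the stretches over 50 kb, 66 of the 170 lay within 5 kb of a border, or 18.8 per Mb. The density was 9.38 per Mb from 5 to 10 kb, 3.79 from 10 to 25 kb, 1.99 from 25 to 50 kb and 0.647 beyond 50 kb, where 7 clusters lay in 10.8 Mb. The median distance to the nearer border was 6.82 kb. The cluster farthest from a border, at 223 kb, was the one inside the longest stretch (2L:14587648-14588688, 1041 bp, score 0.581), which left a free piece of 384 kb there.

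**Figure D5:**
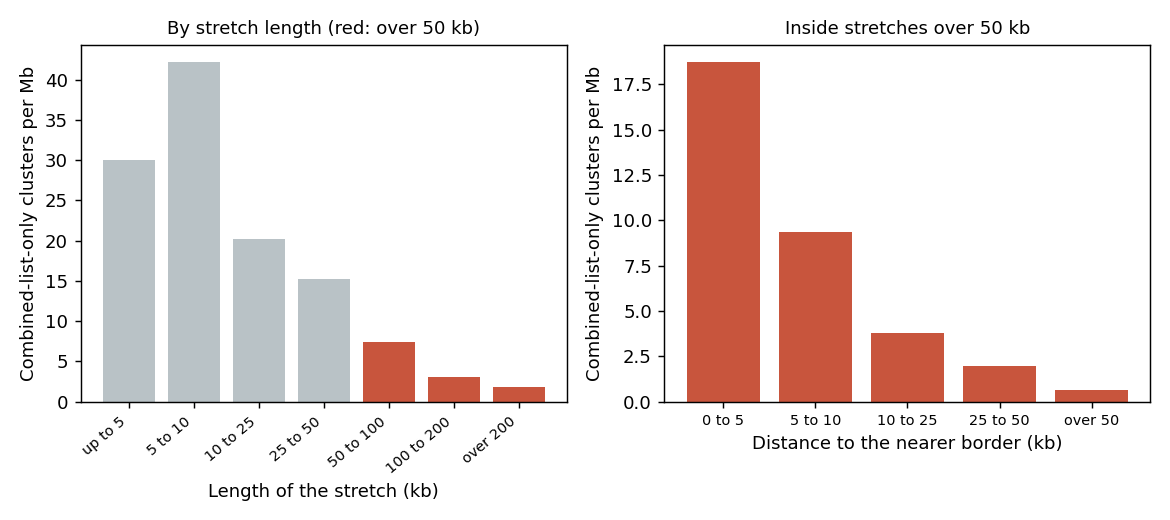
Density (per Mb) of combined-list clusters that touch no replicate cluster: left, in stretches between union clusters by length in kb, with those over 50 kb in red; right, inside the stretches over 50 kb by distance in kb to the nearer border. The left panel goes from 42.2 per Mb at 5 to 10 kb to 1.82 over 200 kb, and the right panel from 18.8 to 0.647 per Mb.

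X stood apart in the number of such clusters. Its stretches held 69, or 7.53 per Mb, against 3.24 on 2L, 3.07 on 3L and 3.37 on 3R, and 38 of its 85 stretches (44.7%) held at least 1, against 29.2% on 2L, 31.0% on 3L and 25.3% on 3R. In shorter stretches X had 28.1 per Mb, against 19.0 on 2L, 24.6 on 3L and 22.6 on 3R. There is 1 combined list, so these values have no spread. Most borders on X were set by replicate 1, and whether this bears on the number of such clusters was not tested. Of the 6 stretches with the most clusters, 5 were on X and 1 was on 3R. The 108 kb stretch X:19922306-20030293 held 6, between 1075 and 1749 bp wide with scores of 0.567 to 0.772, all in its last 42.0 kb. That stretch was 108 kb in replicate 1 and 177 kb in replicate 2, where the nearest cluster on the low side was 66.6 kb further out. The other 5 held 4 clusters each and were X:16001634-16145833 (144 kb), X:7646664-7750920 (104 kb), X:10860569-10962565 (102 kb), X:11114762-11201992 (87.2 kb) and 3R:9692499-9769730 (77.2 kb).

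The combined list was sparse in the longest stretches of each arm too. It placed no separate cluster in 2L:3874187-4177610, 2L:16926762-17187153 or 3L:22287834-22680525, nor in any of the 3 on 3R, where it extended border clusters inward by 425 bp, 427 bp and 13 bp. The 344 kb and 324 kb stretches of 3L held 1 each, with scores of 0.673 and 0.411. On X the 379 kb stretch held 1, which had 1001 bp and a score of 0.740 and lay next to its high-side border. The 333 kb stretch held 2, of 1051 bp and 1035 bp, close to either end. The 287 kb stretch held 2, of 1001 bp with a score of 1.05 near its low side and of 1441 bp with a score of 0.561 near its middle, and the longest piece left free was 154 kb.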

How the data were processed

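The deposited files were 3 cluster lists: 1 for each ChIP replicate, which the labels tie to its own input, and 1 combined list of the replicate set. Per the submitters' processing notes, the aligner was Bowtie 0.12.7. Per the file headers, which also gave the arm lengths, positions are those of FlyBase release 5. The sources used here name neither the caller nor its threshold nor how replicates were combined. Beside its position, a cluster carries a score deposited by the authors, which served to rank clusters.

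The lists were read with pandas 2.3.3 and numpy 2.4.6 under Python 3.11.15. Clusters of both replicates that share at least 1 bp were merged, and the sequence between consecutive merged clusters was taken as a stretch if longer than 50000 bp. A cluster was unmatched if it shared no base with the other list. The procedure was tested on simulated lists with planted stretches. No test was made, since these clusters chose the stretches. Values of the 2 replicates are given with mean and SD. Read depth is unknown, so no counting interval is given. Stretches named are the 3 longest of each arm, those at the threshold, the 5 with most combined-list clusters (ties by length) with a sixth that tied at 4 and was added after its value was seen, and the runs and isolated clusters at the top of their rankings, those by mean score among clusters called in both lists. The threshold, lists and comparisons were chosen with earlier results of these data known. Alternatives covered each replicate alone, the score, matching, the combined list, minimum length, arm ends and the choice of border clusters. The available gene table is of release 6, so genes, exons and other annotation were not used here, and sequences were not analysed here.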

Additional observations from a re-analysis of the deposited data

How the results depend on the processing

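The alternatives gave 61 values. Only the width ratio, the score difference, the difference in unmatched clusters and the ratio of combined-only densities have a direction. None of their alternative values turned it round. The number of stretches, their share of the arms and the longest length have no direction to turn. Of the 61 values, 23 stayed within the spread of the replicates (for the number of stretches, within 1.5 times) and 38 moved further. The cause of a move was not tested unless stated. For the width ratio, score difference and unmatched difference, the spread was taken at the same union stretches in both lists. With a minimum length of 25 kb, 75 kb or 100 kb there were 664, 235 or 162 stretches, over 52.5%, 34.1% or 27.6% of the arms, by construction. Each replicate alone gave 367 to 392 stretches over 46.1 to 47.8% of the arms and a longest stretch of 608 to 638 kb. The upper 50% of each list by score gave 56.5% and the clusters touching the other list 53.6%, since fewer clusters remain, and both had a longest stretch of 638 kb; the combined list had 441 kb, elsewhere on 2L, because 1 of its clusters splits the 607 kb stretch. The width ratio of border to other clusters was 0.713 to 0.733 in single replicates, 0.977 in the upper 50% by score, 0.912 for matched clusters, 0.915 for stretches of the combined list, 0.778, 0.753 and 0.814 at 25, 75 and 100 kb, 0.618 for clusters whose edge is the border, and 0.741 as a mean of the arms. The score difference was -0.0778 to -0.0660 in single replicates, -0.0797 in the upper 50%, -0.0839 for matched clusters, -0.0197 for the combined list, -0.0149 at 100 kb and -0.0846 for clusters whose edge is the border. The difference in unmatched clusters was 9.18 points in the upper 50%, 2.74 for the combined list, 11.7 at 100 kb and 34.3 for clusters whose edge is the border. The ratio of combined-only densities was 0.233 to 0.309 in single replicates, 0.410 in the upper 50%, 0.359 for matched clusters and 0.122 for clusters of at least 1301 bp. No paired analysis was possible because no list gives values for the input libraries, which carry the same replicate numbers. The unknown read depth limits what can be said of the 53.0% of borders set by a cluster called in 1 list alone.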

Other observations

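A few of the clusters that only the combined list placed inside the stretches had high scores, and these were singled out after their values had been seen. Of the 170, 26 (15.3%) scored above 0.740, the median of the combined-list clusters that touch a replicate cluster, and 21 of the 26 were on X. X held 69 of the 170, and its clusters scored higher in general: the median score inside the stretches was 0.609 on X, against 0.478 to 0.494 on the other arms, and that of clusters away from the borders was 1.12 in replicate 1 and 1.14 in replicate 2 on X, against 0.885 to 1.01 on the other arms. Among them, 3 scored over 2, as did 46 of all 5488 combined-list clusters on the 4 arms, 9 of which were narrower than 1301 bp. The 3 were 3L:18530022-18531034 (1013 bp, score 2.87), X:21550640-21551664 (1025 bp, score 2.87) and X:20834276-20835278 (1003 bp, score 2.78), which ranked 2, 2 and 5 in the list. The first 2 had the same score, and all 3 were close to 1001 bp, the smallest width in the combined list. They lay in stretches of 105 kb, 55.8 kb and 218 kb where neither replicate list had a cluster.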
